A study of Mus musculus with 51 samples.

Results

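The comparison described here is that of Pparg activation with the empty vector at day 4 of fat cell differentiation. Its members are the 6 libraries labelled P (guide RNA for Pparg) and the 6 labelled EV (empty vector) on that day, taken by their labels, which makes 12 of the 51 libraries of the series. C3H/10T1/2-SAM is a mouse mesenchymal cell line that can turn into fat cells. It carries a dead Cas9 fused to VP64 together with an MS2-P65-HSF1 fusion, a pair of activators that a guide RNA brings to a chosen promoter, so the gene is switched on from its own locus. EV and P cells alike carried this system, received 250 ng of plasmid in all, and were given 5 µM rosiglitazone, a drug that binds and activates the PPARG protein, from day 0, which was 48 hours after transfection. EV cells are therefore rosiglitazone-treated cells without the guide, not untreated cells. Each group has 1 library from each of 6 experiments, and an EV library and a P library of the same number share an experiment. The labels name 1 cell line, do not say whether it is a single clone, and do not give the guide sequence or which Pparg promoter it was aimed at.

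PPARG is a nuclear receptor that binds fatty acid-like ligands and pairs with a retinoid X receptor (RXR) on DNA, where it switches on the genes of the fat cell. It works in a loop with the factor C/EBPα, each keeping the other on, and the genes downstream take up, store, release and burn fatty acids and make the hormone adiponectin. Its classical DNA element is built from the hexamer AGGTCA, repeated with 1 base between the copies.

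RNA was sequenced after removal of ribosomal RNA, and the deposited table holds counts per gene. Total counts in the 12 libraries ran from 11319350 to 29185878, and 14536 genes had enough counts to be tested. Levels are given as CPM (counts scaled to a common library size), usually as the lowest, median and highest of the 6 libraries. Differences are log2 fold changes of P over EV ± SE, and adjusted p-values come from edgeR's quasi-likelihood test with the experiment as a block and Benjamini-Hochberg adjustment over all 14536 genes. A gene rose or fell where the adjusted p was under 0.05. EV and P libraries of the same experiment resembled each other: with the group means taken out, the 2 libraries of an experiment had a median correlation across genes of 0.72 (6 pairs), against -0.20 for libraries of different experiments (30 pairs). Taking out the group means itself pushes the second value below 0, so it is not an independent baseline. Experiment accounted for 64.8% of the first principal component, which held 35.7% of the variance. Experiments 2 and 3 stood apart in the share of counts on mitochondrial rows. It was 5.18 and 7.14% in EV and 8.91 and 13.2% in P, against 1.10 to 4.37% in the other 8 libraries. In 3 of their 4 libraries they also stood apart in Lars2, a gene whose row is known to collect ribosomal RNA reads. Lars2 held 8.41% of the counts in EV and 6.09% in P of experiment 3 and 3.16% in P of experiment 2. It held 0.303% in EV of experiment 2 and at most 0.379% in the other 8 libraries. Counts are therefore also given without these experiments for many gene lists, in part in the closing section, but not for all.

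The targeted gene comes first. Pparg (ENSMUSG00000000440, chromosome 6) stood at 41.8, 55.1 and 76.4 CPM (lowest, median and highest) in EV and at 203, 211 and 370 CPM in P. All 6 P libraries lay above all 6 EV libraries, and the highest P library was that of experiment 5. The difference was 4.25-fold (95% interval 3.28 to 5.52, log2 2.09 ± 0.17, adjusted p = 3.53e-05), and it ran from a log2 difference of 1.61 in experiment 1 to 3.004 in experiment 5. In bulk RNA, more transcript in each cell and more cells that carry it cannot be told apart, here and in every result that follows.

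Pparg has several start sites, and RefSeq (GRCm38.p6) places 3 of them in 61 kb on the plus strand of chromosome 6. The 250 bases before each are shown because the guide acts at a promoter of this gene and because PPARG's own hexamer can be looked for there; copies of AGGTCA on either strand are in capitals, which read TGACCT where the copy lies on the opposite strand. The windows are chr6:115360894-115361143, chr6:115362099-115362348 (1.2 kb further on) and chr6:115421816-115422065 (60.9 kb further on).
Pparg start 1: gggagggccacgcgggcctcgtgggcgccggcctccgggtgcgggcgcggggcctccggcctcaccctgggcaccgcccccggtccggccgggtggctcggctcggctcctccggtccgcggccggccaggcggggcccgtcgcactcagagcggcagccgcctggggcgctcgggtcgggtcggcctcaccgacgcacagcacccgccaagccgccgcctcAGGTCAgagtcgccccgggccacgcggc
Pparg start 2: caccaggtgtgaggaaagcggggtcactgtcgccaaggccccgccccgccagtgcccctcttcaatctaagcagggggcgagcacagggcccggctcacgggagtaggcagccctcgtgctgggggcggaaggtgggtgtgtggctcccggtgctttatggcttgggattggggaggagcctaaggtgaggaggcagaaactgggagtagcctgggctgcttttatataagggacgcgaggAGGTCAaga
Pparg start 3: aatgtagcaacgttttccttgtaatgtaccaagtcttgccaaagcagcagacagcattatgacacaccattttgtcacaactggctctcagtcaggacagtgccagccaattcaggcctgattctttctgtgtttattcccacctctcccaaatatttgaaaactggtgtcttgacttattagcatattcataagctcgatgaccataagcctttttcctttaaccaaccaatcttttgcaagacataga
One copy lies 28 bases before the first start and one 9 bases before the second, while these letters are not in the third window. In all, 14.0% of 32851 promoter windows of this length hold the hexamer on either strand. The deposited counts are per gene and do not separate transcripts of these start sites.

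Few genes around Pparg passed. Among the protein-coding genes that start within 500 kb and are described here, Syn2 (226 kb upstream), a synaptic vesicle protein in neurons, rose from 0.326, 0.407 and 0.558 CPM to 0.495, 1.35 and 3.61 CPM (log2 1.90 ± 0.31, adjusted p = 0.00247). The groups overlapped and the level stayed low. Cand2 (413.6 kb downstream) fell from a median of 22.4 to 14.9 CPM (log2 -0.43 ± 0.11, adjusted p = 0.0229), a call that was lost without experiment 1, 2 or 5 (adjusted p = 0.0543, 0.0620 and 0.0619). Vgll4, Tamm41, Mkrn2, Rpl32, Mbd4 and Ift122 did not pass, with log2 differences from -0.16 in Ift122 to 0.25 in Vgll4.

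Across the genome, 3278 of 14536 genes passed (22.6%), of which 1820 were higher with the guide (12.5%) and 1458 lower (10.0%). Counts within the gene lists below are to be read beside these shares of 12.5% and 10.0%. The rises and the falls differed in size. The median rise was 1.499-fold, 483 genes rose at least 2-fold, 195 at least 4-fold, 79 at least 16-fold and 21 at least 100-fold. The median fall was 1.27-fold, 6 genes fell at least 2-fold and the deepest fall was 2.32-fold. Of the genes called higher, 1591 were higher in 6 of 6 experiments, where 13.2% of all genes were, and 1217 of those called lower were lower in all 6, where 13.0% of all genes were. In 487 of the genes called higher every P library lay above every EV library (3.36% of all genes did so), but in only 16 of the genes called lower did every P library lie below (0.131% of all genes). The falls rest on pairing: without the block, 714 genes passed as higher (4.91%) and 10 as lower (0.0688%). With experiments 2 and 3 left out, 922 were higher and 208 lower, without experiment 2 alone 1282 and 734, and without experiment 3 alone 1411 and 898. The median log2 difference over all genes was -0.04. Scaling by library totals alone moved it to -0.10 and turned the split to 1460 higher and 2251 lower, so small differences depend on the scale.

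**Figure D1:**
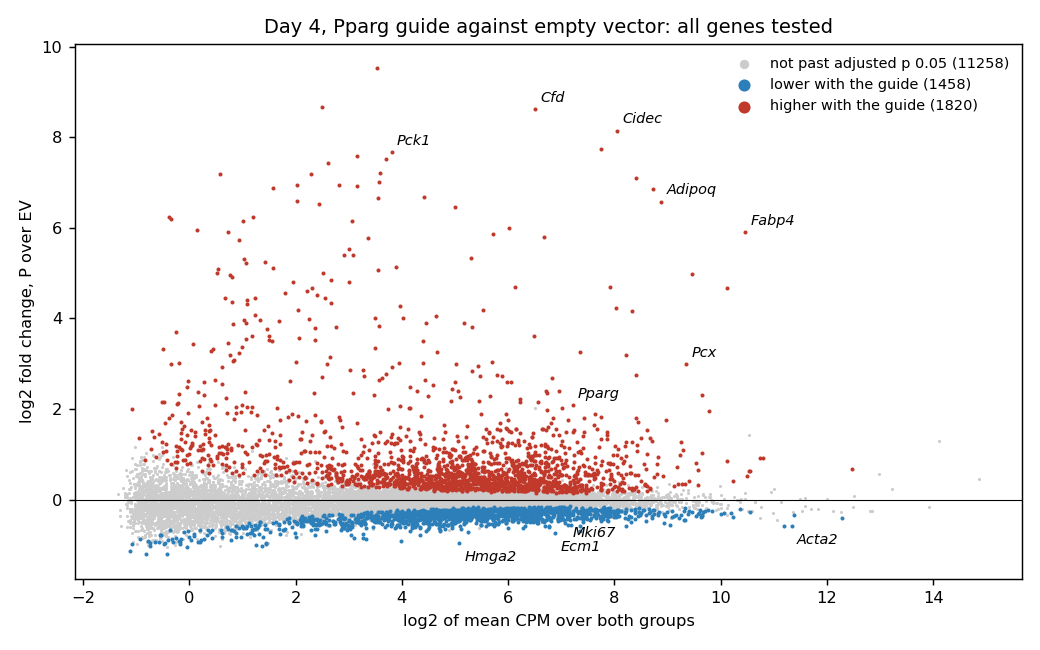
Log2 fold change of P over EV at day 4 (vertical axis) against the log2 of the mean CPM of both groups (horizontal axis), 1 point per gene tested. The 1820 genes higher with the guide (red) reach log2 values over 8, while the 1458 lower genes (blue) lie close below 0 and the others are grey.

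Some of the fat cell transcription factors rose. Of 36 tested factors of fat cell formation, 13 rose (36.1%, against 12.5% of all genes) and 3 fell (8.33%, against 10.0%). The median log2 difference was 0.04, against -0.04 for all genes. Without the block 7 rose and none fell. Of the 34 factors with enough counts in both groups 11 rose and 3 fell. Cebpa, PPARG's partner in the loop, rose from 5.73, 8.37 and 11.9 CPM to 25.2, 51.2 and 96.2 CPM (6.02-fold, 95% interval 4.55 to 7.96, adjusted p = 1.27e-05), and its groups did not overlap. Nr1h3, the oxysterol receptor LXRα, rose from a median of 1.16 to 15.4 CPM (15.99-fold, 95% interval 10.5 to 24.4). The receptor genes themselves moved as well: Rxrg, an RXR, had a median of 0 CPM in EV (highest 0.228) and stood at 1.07, 4.08 and 10.1 CPM in P (log2 6.23 ± 0.35), and Ppara, the fatty acid-sensing receptor of the liver, went from a median of 0.107 to 2.37 CPM (log2 5.31 ± 0.53). Both are scarce, and their folds rest on few EV counts: Rxrg was 75.2-fold higher with all experiments and 197-fold without experiment 2, and Ppara 39.7-fold and 17.1-fold. The factors that fell are known as brakes on fat cell formation in the case of Gata2 (median 36.6 to 26.8 CPM, log2 -0.51 ± 0.10, adjusted p = 0.00609) and Klf2 (24.6 to 21.5 CPM, log2 -0.54 ± 0.12, adjusted p = 0.0120). Klf4, which is induced early in fat cell formation, also fell (136 to 106 CPM, log2 -0.39 ± 0.06, adjusted p = 0.00224).

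Textbook PPAR-responsive genes rose almost as a block: 35 of 36 tested members rose and none fell (median log2 4.08), and 30 rose without the block. Of the 36, 11 passed the filter on low counts through the P libraries and not through EV; the 24 that had enough counts in both groups comprised 23 that rose (median log2 2.26). Fabp4, the fatty acid carrier protein of fat cells, rose from 11.9, 37.7 and 150 CPM to 1467, 2521 and 5055 CPM (59.8-fold, 95% interval 31.0 to 115.3, adjusted p = 1.47e-05). Adipoq, which encodes adiponectin, rose from 0.819, 6.82 and 68.3 CPM to 377, 722 and 1858 CPM (95.8-fold, 95% interval 33.6 to 273, adjusted p = 0.000194). Cd36, the fatty acid transporter of the cell surface, rose from 0.372, 2.496 and 31.2 CPM to 187, 561 and 1652 CPM (136-fold, 95% interval 57.3 to 324, adjusted p = 2.99e-05). In each of these genes the P and EV libraries did not overlap, and the EV libraries spanned more than 10-fold among themselves, with experiment 2 the highest. Per kilobase of gene length, Adipoq reached 671 and Fabp4 612 RPKM in P against 12.2 and 13.6 in EV, while Pparg itself went from 19.1 to 81.2 RPKM. The member that did not pass was Pdk4, a kinase that blocks pyruvate dehydrogenase, at 39.8, 85.4 and 111 CPM in EV and 70.5, 94.5 and 248 CPM in P (log2 0.68 ± 0.36, adjusted p = 0.207), higher in P in 3 of 6 experiments.

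**Figure D2:**
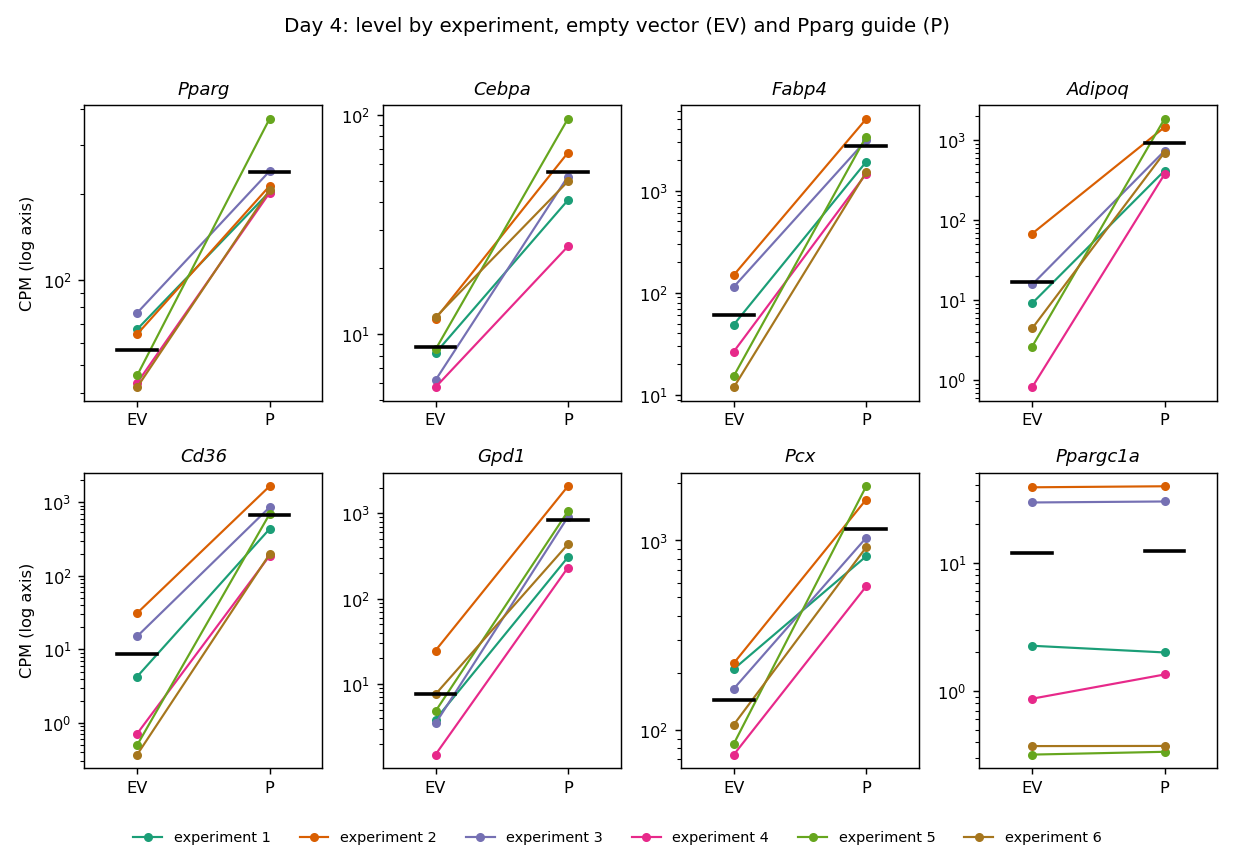
CPM (log axis) of Pparg, 6 genes that rose and Ppargc1a in the EV and P library of each experiment, joined by a line, with black bars for the group means. Lines rise in all 6 experiments for the first 7 genes, from EV starting points that differ between experiments, and run nearly level for Ppargc1a.

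Some of the promoters of these genes carry the hexamer. RefSeq windows of GRCm38.p6 were matched by symbol for 118 of the 195 genes that rose at least 4-fold, and 24 of them (20.3%) hold AGGTCA on either strand in the 250 bases before a start. The share was 12.6% of 10264 matched tested genes, 15.0% of 1399 that rose and 12.9% of 1103 that fell. The spaced form, which is AGGNCA, any 1 base and AGGNCA again on either strand and can overlap the hexamer where N is T, was found in 2 of the 118 genes (1.69%) and in 0.273% of the tested genes. The following windows are shown for genes described in the text with copies in capitals, on the strand of the gene: Rxrg (plus strand, chr1:167618015-167618264), Adig (plus, chr2:158502362-158502611), Ucp3 (plus, chr7:100472741-100472990), Aqp7 (minus, chr4:41047963-41048212), Cd36 (minus, chr5:17835897-17836146) and Slc13a4 (minus, chr6:35308127-35308376), the last with the spaced form.
Rxrg: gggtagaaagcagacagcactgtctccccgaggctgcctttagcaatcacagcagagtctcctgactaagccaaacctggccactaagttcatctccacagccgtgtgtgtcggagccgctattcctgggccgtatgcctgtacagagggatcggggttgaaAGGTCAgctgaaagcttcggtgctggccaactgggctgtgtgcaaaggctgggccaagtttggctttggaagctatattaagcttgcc
Adig: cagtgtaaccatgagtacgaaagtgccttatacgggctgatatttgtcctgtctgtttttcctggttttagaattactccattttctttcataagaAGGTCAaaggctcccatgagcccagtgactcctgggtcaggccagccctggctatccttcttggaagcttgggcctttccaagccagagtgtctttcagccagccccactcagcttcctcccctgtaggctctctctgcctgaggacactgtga
Ucp3: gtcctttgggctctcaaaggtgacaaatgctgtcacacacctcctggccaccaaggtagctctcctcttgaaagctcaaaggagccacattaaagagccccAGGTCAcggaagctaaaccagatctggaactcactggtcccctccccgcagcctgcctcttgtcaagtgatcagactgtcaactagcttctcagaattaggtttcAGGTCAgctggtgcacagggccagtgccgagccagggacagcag
Aqp7: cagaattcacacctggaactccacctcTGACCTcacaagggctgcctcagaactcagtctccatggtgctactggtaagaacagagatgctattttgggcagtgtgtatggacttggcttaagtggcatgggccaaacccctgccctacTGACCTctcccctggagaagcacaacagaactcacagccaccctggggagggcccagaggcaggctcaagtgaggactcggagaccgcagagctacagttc
Cd36: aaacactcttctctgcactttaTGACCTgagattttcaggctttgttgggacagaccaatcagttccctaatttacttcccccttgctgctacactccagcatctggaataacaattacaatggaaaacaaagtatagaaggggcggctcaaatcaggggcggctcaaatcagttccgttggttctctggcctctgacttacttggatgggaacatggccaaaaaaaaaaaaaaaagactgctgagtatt
Slc13a4: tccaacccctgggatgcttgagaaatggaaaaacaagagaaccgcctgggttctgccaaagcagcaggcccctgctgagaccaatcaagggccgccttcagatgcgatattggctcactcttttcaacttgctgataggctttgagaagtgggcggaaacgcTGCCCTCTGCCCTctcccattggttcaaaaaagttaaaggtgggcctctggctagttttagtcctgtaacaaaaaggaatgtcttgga
In Ucp3 the copies lie 149 and 44 bases before the start and in Aqp7 223 and 101 bases before it, and in the other windows the copy lies at 88 (Rxrg and Slc13a4), 154 (Adig) and 228 bases (Cd36). Only windows with a copy are shown for these genes. Another start of Rxrg (window chr1:167598112-167598361) has neither form before it. These are matches of letters, and binding was not measured. Of the genes shown, Adig, a small membrane protein of fat cells, went from a median of 0.0415 to 17.5 CPM (log2 7.22 ± 0.34), Ucp3, a mitochondrial carrier of muscle and brown fat, from 0.0920 to 4.29 CPM (38.1-fold, 95% interval 27.1 to 53.5) and Aqp7, the glycerol channel of the fat cell, from 0.216 to 36.5 CPM (102-fold, 95% interval 65.7 to 160). Slc13a4, a sulfate transporter, rose from 0.375 to 9.43 CPM (24.5-fold, 95% interval 16.8 to 35.9). In all 4 the P libraries lay above the EV libraries, and without experiment 2 Adig was 547-fold higher in place of 149-fold.

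Many of the largest rises were in genes close to silent without the guide. In all, 51 of the genes called higher had a mean under 1 CPM in EV and of at least 5 CPM in P. Sptlc3, a subunit of the enzyme that starts sphingolipid synthesis, had 4 counts in the 6 EV libraries together, all of them in experiment 2, and stood at 3.19, 8.99 and 84.8 CPM in P. Its fitted difference was 736-fold, which rests on those 4 counts, so no interval is given. Against the 5 EV libraries with no count it was at least 299.6-fold higher, taking 3 counts over the group as the floor. Kcnk3, a potassium channel, had its EV counts in that library too and was 172-fold higher (at least 299.6-fold in the other 5 experiments). Aldh3b2, an aldehyde dehydrogenase, had 3 counts in EV and 1409 in P, a ratio of 499 (95% counting interval 170 to 2424). Its EV counts were again all in experiment 2, it was at least 363-fold higher in the other 5 experiments, and the fitted fold was 407 with all experiments and 269 without experiment 5. Tmem182 stood at a median of 0.0375 CPM in EV and 13.3 in P (192-fold, and 294-fold without experiment 4). Orm1, an acute-phase plasma protein, went from 0.0643 to 5.50 CPM (123-fold). None of these 5 had overlapping groups.

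Transcripts for fat storage and for its release rose together. Of 18 tested lipid droplet genes 12 rose and 1 fell (median log2 1.09), of 38 genes of fatty acid and triglyceride synthesis 30 rose and none fell (median 0.65), of 21 genes of fatty acid uptake and binding 12 rose and 2 fell (median 0.53), and of 27 genes of lipolysis and its control 17 rose and 1 fell (median 0.62). Without the block, 8, 18, 7 and 14 of these rose and none fell, and without experiments 2 and 3 10, 21, 8 and 16 rose. In these lists 3, 1, 2 and 4 members passed the filter on low counts through the P libraries and not through EV. Among the 15, 37, 19 and 22 with enough counts in both groups, 9, 29, 11 and 13 rose (median log2 0.97, 0.63, 0.46 and 0.56). Cidec, which fuses lipid droplets, rose from 0.256, 0.996 and 14.9 CPM to 120, 412 and 1046 CPM, and Plin1, which coats them, from 0.205, 0.967 and 17.5 CPM to 163, 368 and 789 CPM. The groups did not overlap in either gene, and the EV library of experiment 2 was far above the other 5. The folds were 284 for Cidec and 214 for Plin1 with all experiments and 486 and 391 without experiment 2. Plin3, a droplet coat protein found in most cells, fell slightly (median 160 to 133 CPM, log2 -0.23 ± 0.06, adjusted p = 0.0218), and its call was lost in turn without experiments 1, 2 and 3.

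Genes that supply the glycerol backbone and acyl chains were part of this. Gpd1, which makes glycerol 3-phosphate, rose from 1.48, 4.31 and 24.7 CPM to 231, 669 and 2079 CPM (116-fold, 95% interval 72.0 to 187, adjusted p = 4.13e-07). Pck1, which in fat cells feeds glycerol synthesis from pyruvate, went from a median of 0.0415 to 16.7 CPM (204-fold, and 396-fold without experiment 2). Acsl1, which activates fatty acids with coenzyme A, rose from 49.2, 64.04 and 120 CPM to 564, 1977 and 4452 CPM (25.5-fold, 95% interval 14.6 to 44.5), and Gpat3, which adds the first chain, from a median of 4.18 to 129 CPM (25.8-fold). Dgat2, the last step of triglyceride synthesis, rose from 10.2 to 65.0 CPM (6.62-fold, 95% interval 4.94 to 8.88). Lpl, which frees fatty acids from lipoproteins outside the cell, rose from 11.4, 27.4 and 172 CPM to 363, 1093 and 2981 CPM (31.8-fold, 95% interval 15.8 to 63.9). No group overlapped in these genes. Fads1, a fatty acid desaturase, did not pass (344 to 393 CPM, adjusted p = 0.0635), and Slc27a3, a fatty acid transport protein, fell (26.5 to 18.7 CPM, log2 -0.43 ± 0.07, adjusted p = 0.00204).

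Transcripts of both arms of lipolysis control were higher. Lipe, hormone-sensitive lipase, rose from 8.14, 15.7 and 36.5 CPM to 171, 433 and 783 CPM (25.9-fold, 95% interval 16.5 to 40.6, adjusted p = 5.16e-06), and G0s2, which inhibits the triglyceride lipase ATGL, rose from a median of 10.4 to 88.4 CPM (8.19-fold, 95% interval 6.30 to 10.7). Adrb3, the β3-adrenergic receptor through which catecholamines start lipolysis, stood at 0.0375, 0.0962 and 0.261 CPM in EV and 4.17, 17.4 and 80.1 CPM in P, with no overlap. Its fold was 184 with all experiments, 280 without experiment 2 and 112 without experiment 5. Hcar2, a receptor whose ligands restrain lipolysis, went from 0.0188 to 3.80 CPM (71.5-fold). Pnpla3, a relative of ATGL, went from 0.0456 to 6.33 CPM (145-fold). Pde4d, a phosphodiesterase that degrades cyclic AMP, fell from a median of 53.1 to 43.0 CPM (log2 -0.36 ± 0.09, adjusted p = 0.0148), a call lost without experiment 2 (adjusted p = 0.0507).

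Transcripts of secreted factors and of insulin action changed in part. Of 19 tested adipokines and related secreted proteins 9 rose (47.4%, against 12.5% of all genes) and 1 fell (5.26%, against 10.0%). The median log2 was 0.38, and 7 rose without the block. Of the 17 with enough counts in both groups 8 rose and 1 fell. Cfd, the complement protease adipsin, rose from 0.0512, 0.289 and 1.77 CPM to 25.2, 131 and 455 CPM, with no overlap. It was 391.97-fold higher (95% interval 219 to 703), or 627-fold with experiment 6 left out. Agt, angiotensinogen, rose from a median of 1.05 to 12.5 CPM (8.81-fold), Nampt from 195 to 384 CPM (1.96-fold) and the vessel growth factor Vegfa from 43.8 to 73.6 CPM (1.699-fold). Angptl2 fell (259 to 185 CPM, log2 -0.48 ± 0.05, adjusted p = 0.000376). Igf1 did not pass (adjusted p = 0.0783). Of 32 genes of insulin signalling and glucose uptake 13 rose (40.6%) and 2 fell (6.25%), with a median of 0.10, and 8 rose without the block. Of the 30 with enough counts in both groups 11 rose and 2 fell. Slc2a4, the insulin-responsive glucose transporter GLUT4, rose from 0, 0.231 and 1.12 CPM to 4.46, 15.0 and 59.3 CPM (54.5-fold, and 91.7-fold without experiment 6), with no overlap. Slc2a1, the transporter GLUT1 of most cells, fell from 48.7 to 37.9 CPM (log2 -0.27 ± 0.06, adjusted p = 0.0123). That call was lost without experiments 2 and 3 (adjusted p = 0.123). Trarg1, which travels with GLUT4, rose 18.1-fold (2.62 to 70.4 CPM), the adaptor Sh2b2 9.60-fold and Ppp1r3d, which targets a phosphatase to glycogen, 2.66-fold. Glycolysis and hypoxia genes were mixed, with 14 of 32 higher (43.75%) and 4 lower (12.5%, against 10.0% of all genes). Without the block these were 5 and 0, and 9 were higher without experiment 2. Pfkl and Pfkfb3 rose (2.04-fold and 2.27-fold) and Eno2 fell (log2 -0.53 ± 0.08).

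Thermogenic genes did not rise as 1 set. Of 33 listed thermogenic genes 16 had enough counts, of which 8 rose (50%, against 12.5% of all genes) and 1 fell (6.25%, against 10.0%). The median log2 was 0.64, with 7 higher and none lower without the block. Only 8 of the 16 had enough counts in both groups, and 2 of these 8 rose. Ppargc1b, a coactivator of mitochondrial genes, rose from a median of 0.935 to 10.9 CPM (10.2-fold, 95% interval 7.11 to 14.7, adjusted p = 1.30e-05), and Esrra, its partner receptor, from 24.6 to 40.5 CPM (1.69-fold). Slc36a2, an amino acid transporter of the brown fat surface, went from 0.0831 to 17.5 CPM (101-fold, and 199-fold without experiment 2). Ppargc1a, the coactivator best known from brown fat, did not pass (log2 0.06 ± 0.12, adjusted p = 0.727). Its level ran in EV from 0.319 CPM in experiment 5 to 38.7 CPM in experiment 2 and in P from 0.335 to 39.4 CPM in the same experiments. The P and EV library of an experiment thus held nearly the same level, while experiments differed by more than 100-fold.

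Other genes of thermogenic or mature fat were too scarce to test. Ucp1 (uncoupling protein 1, which makes brown fat produce heat) had 2 counts in the 6 EV libraries and 0 in the 6 P libraries, which allows a level of up to 0.0245 CPM over the P group (3 counts, counting error only). Lep, which encodes leptin, had 0 counts in EV (up to 0.0230 CPM) and 2 in P. The brown fat genes Cidea, Elovl3, Prdm16 and Dio2 had 4, 2, 22 and 6 counts in EV and 30, 88, 135 and 15 in P over the 6 libraries of each group. Elovl3 had at most 64 counts and Prdm16 at most 46 in a P library. Retn, which encodes resistin, had 13 counts in EV and 565 in P, but 319 of the latter were in a single library. Dlk1, a preadipocyte gene, had 73 counts in EV and 42 in P. None of these had enough libraries above the count minimum. Ybx1, the other gene targeted in the series, was at a median of 574 CPM in EV and 591 in P (log2 0.04 ± 0.06, adjusted p = 0.713).

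Transcripts for fuel oxidation in mitochondria and peroxisomes rose broadly. Of 36 tested genes of fatty acid oxidation 33 rose and 1 fell (median log2 1.01), of 36 genes of pyruvate use and the citric acid cycle 30 rose and 1 fell (median 0.85), of 29 genes of branched-chain amino acid breakdown 23 rose and 1 fell (median 0.58), and of 55 peroxisomal genes 37 rose and none fell (median 0.65). Without the block 21, 27, 14 and 27 of these rose, with 1 fall, in fatty acid oxidation. Without experiments 2 and 3 27, 29, 17 and 30 rose. Among the 34, 35, 29 and 53 members with enough counts in both groups, 31, 29, 23 and 35 rose. Acadvl and Acadm, which start the oxidation of very long and medium chains, rose 3.23-fold (median 52.2 to 167 CPM, 95% interval 2.46 to 4.23) and 2.82-fold (85.6 to 247 CPM, 95% interval 2.25 to 3.52), and Etfdh, which passes their electrons to the respiratory chain, 2.62-fold. The gene of this list that fell was Cpt1c, a carnitine transferase of neurons with little activity, from 56.7, 63.2 and 82.4 CPM to 32.6, 44.7 and 55.8 CPM (log2 -0.54 ± 0.06, adjusted p = 0.000494). It is 1 of the 16 falls in which the groups did not overlap.

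Pcx, pyruvate carboxylase, which refills the citric acid cycle and supports fatty acid synthesis, rose from 74.0, 136 and 225 CPM to 573, 977 and 1934 CPM (7.99-fold, 95% interval 5.29 to 12.1, adjusted p = 7.27e-05), with no overlap. The cytosolic enzymes Mdh1 and Aco1 rose 2.81-fold and 2.26-fold. Aldh6a1, Bckdhb and Hibadh of branched-chain amino acid breakdown rose 3.38-fold, 2.94-fold and 2.31-fold. In the peroxisome, catalase (Cat), which removes hydrogen peroxide, rose from a median of 204 to 537 CPM (2.57-fold, 95% interval 2.02 to 3.28), the fatty acid importer Abcd2 from 2.78 to 22.8 CPM (8.09-fold) and the thiolase Acaa1b from 3.215 to 42.2 CPM (14.9-fold). Ephx2, soluble epoxide hydrolase, rose from 0.273, 1.45 and 15.3 CPM to 28.8, 88.2 and 799 CPM (55.8-fold, 95% interval 29.5 to 105). Oxct1, which uses ketone bodies, did not pass (adjusted p = 0.0751).

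Transcripts of the respiratory chain rose by smaller steps and nearly without exception. All 36 tested nuclear-encoded subunits of complex I rose (median log2 0.60), and 37 of 40 subunits of complexes II to V rose with no fall (median 0.76). In the fit without the block 22 and 27 of them rose, and without experiments 2 and 3 16 and 23. Ndufs1, the iron-sulfur subunit where complex I takes in electrons, rose from 66.9, 91.6 and 108 CPM to 120, 155 and 224 CPM (1.83-fold, 95% interval 1.51 to 2.21, adjusted p = 0.00137), and Cycs, cytochrome c, from 17.7, 29.2 and 41.5 CPM to 40.3, 78.5 and 187 CPM (2.95-fold, 95% interval 2.19 to 3.98). Uqcrfs1 and Cyc1 of complex III rose 2.38-fold and 2.35-fold and Sdhd of complex II 1.83-fold. Atp5g2, a ring subunit of ATP synthase, did not pass (log2 0.25 ± 0.11, adjusted p = 0.136).

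Transcripts made inside the mitochondrion were higher too, with less certainty. All 7 tested messenger RNAs of mitochondrial DNA rose (median log2 0.62), none passed without the block, and 4 passed without experiments 2 and 3, where the share of counts on mitochondrial rows was largest. mt-Nd1 stood at 325, 1270 and 1816 CPM in EV and 407, 2456 and 5321 CPM in P (log2 0.92 ± 0.14, adjusted p = 0.00205), and mt-Co1 at 1775, 4259 and 6426 CPM and 2456, 7100 and 12059 CPM (log2 0.68 ± 0.12, adjusted p = 0.00385). The groups overlapped, and P was above EV in each of the 6 experiments. The part of the ribosomal share in these values was not tested.

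The remaining mitochondrial groups had smaller medians. Of 77 mitochondrial ribosomal proteins 43 rose (55.8%) and none fell (median log2 0.31), and of 22 import proteins 13 rose (59.1%) and none fell (0.37). Of 39 mitochondrial carriers of the SLC25 family 17 rose (43.6%) and 3 fell (7.69%), with a median of 0.25. Over all genes 12.5% rose and 10.0% fell. In the fit without the block 9, 2 and 9 of them rose, and without experiments 2 and 3 8, 2 and 10. Leaving out single experiments left 21, 26 and 27 ribosomal proteins higher (without experiments 2, 3 and 5) and 6 and 7 import proteins (without 2 and 3). Regulators of mitochondrial biogenesis numbered 8 higher (32%) and 1 lower (4%) of 25 (median log2 0.14) and complex I assembly factors 2 higher (25%) of 8 (0.17). Mrpl20 and Mrps22, of the large and small ribosomal subunit, rose 1.59-fold and 1.64-fold and the import channel Tomm40 1.42-fold. Slc25a10, the dicarboxylate carrier, rose from 22.5, 26.4 and 31.4 CPM to 90.5, 161 and 354 CPM (6.44-fold, 95% interval 4.12 to 10.0), and the ADP/ATP carrier Slc25a5 2.15-fold. The mitochondrial chaperones Hspd1, Hspe1, Hspa9 and Trap1 rose 1.99-fold, 1.48-fold, 1.65-fold and 1.54-fold. By contrast, none of the 76 cytosolic ribosomal proteins passed in either direction (median log2 -0.03), with the block or without it, although 3 fell without experiment 5. Of 37 genes of mitophagy and mitochondrial dynamics 13 rose (35.1%) and 1 fell (2.70%), with a median log2 of 0.16. Those that rose included Bnip3 (2.55-fold), Mfn2 (1.55-fold) and Pink1 (1.32-fold). Without the block 2 were higher and none lower, and 8 were higher without experiment 2. Lysosomal genes numbered 1 higher (2.78%, against 12.5% of all genes) and 6 lower (16.7%, against 10.0%) of 36. The falls were 1 without experiment 2, 3 without experiment 3, 5 or 6, and none without the block. The lysosomal membrane protein Lamp1 did not pass (adjusted p = 0.657).

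**Figure D3:**
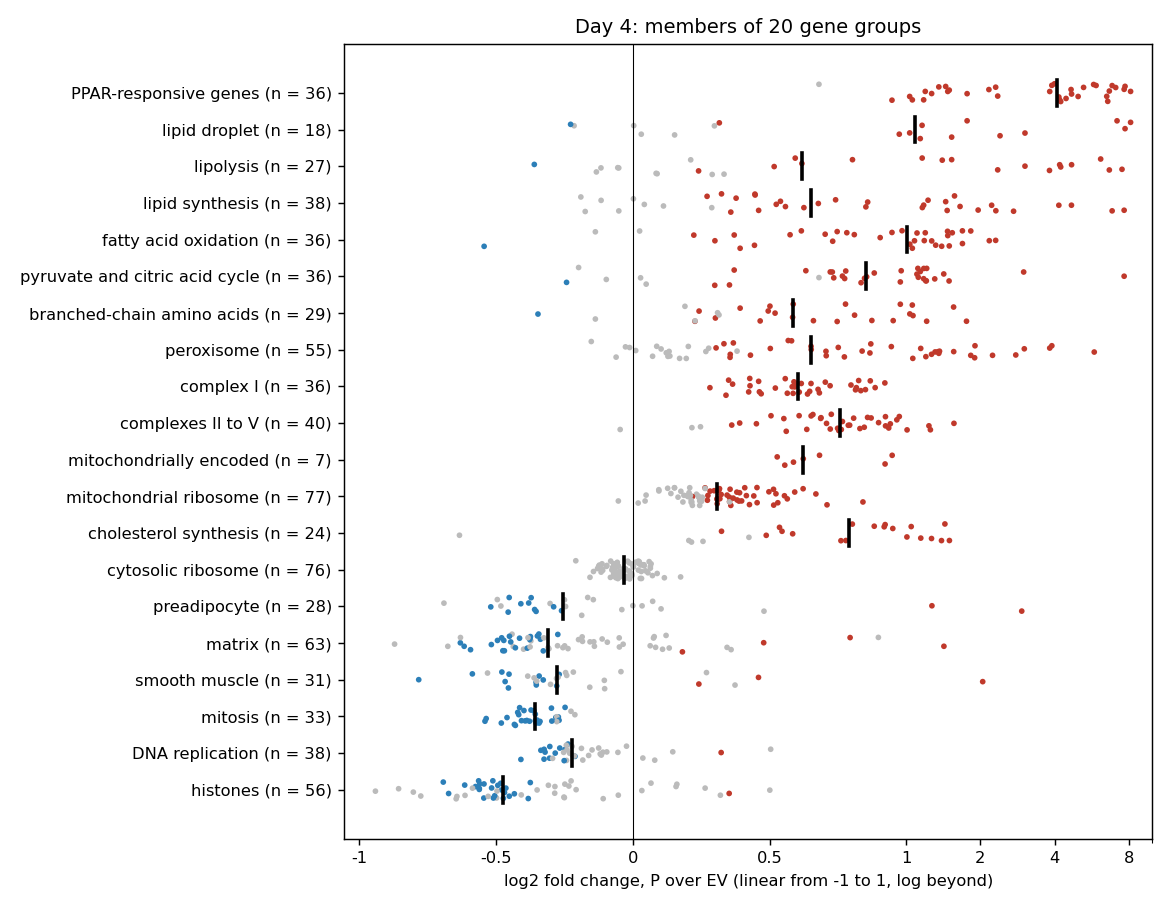
Log2 fold change of P over EV of each tested member of 20 gene groups (1 point per gene, red where higher, blue where lower, grey where neither passed), with a black bar at the median. Groups of fat storage and oxidation lie mostly to the right of 0 and the cytosolic ribosome around 0. The medians of the precursor, matrix, muscle and division groups lie between -0.48 and -0.22, with single members such as Mcam (log2 2.94) and Des (log2 2.04) far to the right.

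Genes of cholesterol synthesis passed mostly with the block. Of 24 tested genes of this list 19 rose and none fell (median log2 0.79), but 3 rose without the block, 3 without experiments 2 and 3, and 12 without experiment 2 or 6 alone. Dhcr7, the last step of the pathway, went from a median of 12.5 to 39.1 CPM (2.82-fold, 95% interval 1.87 to 4.25, adjusted p = 0.00392), and Insig1, which holds the pathway's regulator in check, from 65.8, 114 and 186 CPM to 128, 303 and 732 CPM (2.70-fold, 95% interval 1.84 to 3.97). The groups overlapped, and the log2 difference of Insig1 ran from 0.59 in experiment 1 to 2.59 in experiment 5. Fdps and Acat2 rose 2.21-fold and 2.62-fold. Sqle, which oxidises squalene, did not pass (123 to 151 CPM, adjusted p = 0.0638). Of 14 tested genes of cholesterol uptake and export 4 rose (28.6%, against 12.5% of all genes) and 2 fell (14.3%, against 10.0%), with a median log2 of -0.02. The same number rose without the block and without experiments 2 and 3. Of the 13 with enough counts in both groups 3 rose and 2 fell. The exporter Abca1 rose from 48.7, 75.7 and 104 CPM to 145, 271 and 389 CPM (3.48-fold, 95% interval 2.93 to 4.13, adjusted p = 4.76e-06) and the lipoprotein receptor Scarb1 6.06-fold. Abcg1 rose 15.9-fold with overlapping groups, 40.5-fold without experiment 2 and 9.93-fold without experiment 5. Soat1, which esterifies cholesterol, fell (log2 -0.37 ± 0.08, adjusted p = 0.0113).

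Antioxidant and stress genes gave mixed counts. Of 35 genes of the antioxidant response 15 rose (42.9%, against 12.5% of all genes) and none fell (median log2 0.17). Without the block 9 rose. The glutathione transferases Mgst1 and Mgst3 rose 9.53-fold (29.2 to 253 CPM) and 2.83-fold, and the superoxide dismutases Sod1 and Sod2 2.03-fold and 1.98-fold. Unfolded protein response genes numbered 6 higher of 33 (18.2%, against 12.5% of all genes) with none lower, among them Dnajb9 (2.81-fold), and 1 passed without the block. Without experiment 2, 5 or 6 the count was 3, 3 and 2. Among 47 interferon-responsive genes 1 rose (Ifi27, 1.73-fold) and 1 fell (Ifit1bl1, log2 -0.91 ± 0.18), each 2.13% of the list and below the shares of all genes, although 5 fell without experiment 6. Of 24 p53 targets 3 rose (12.5%, as in all genes) and 5 fell (20.8%, against 10.0% of all genes), and none passed without the block. Without experiment 2 none rose and 2 fell.

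Genes of the precursor cell fell by small amounts. Of 28 tested preadipocyte and fibroblast genes 10 fell and 2 rose (median log2 -0.26), and of 63 matrix genes 22 fell and 4 rose (median -0.31), against 10.0% of all genes that fell. Without the block none of either list fell, and without experiments 2 and 3 3 and 9 fell. Of the preadipocyte genes 5, 5 and 6 fell without experiments 2, 3 and 5 alone. Cd248 (endosialin), a surface protein of mesenchymal precursors, went from 154, 179 and 356 CPM to 102, 151 and 246 CPM (log2 -0.46 ± 0.09, adjusted p = 0.00681), and Zfp521, an inhibitor of fat cell commitment, from a median of 99.1 to 74.3 CPM (log2 -0.37 ± 0.08, adjusted p = 0.0120). Thy1 and Cd44 fell by 0.52 and 0.41 on the log2 scale. Their groups overlapped, since the EV libraries of 1 experiment could lie below the P libraries of another. Mcam went the other way (7.01 to 64.5 CPM, 7.69-fold).

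Among matrix genes, Ecm1 fell from 43.1, 154 and 273 CPM to 22.6, 83.7 and 183 CPM (log2 -0.74 ± 0.11, adjusted p = 0.00133), lower in 6 of 6 experiments. The elastic fibre proteins Ltbp2 and Emilin1 fell by 0.59 and 0.47 on the log2 scale and the protease inhibitor Timp1 by 0.59. The abundant Col3a1 and Postn did not pass (adjusted p = 0.134 and 0.129). Of 34 tested collagens 10 fell (29.4%, against 10.0% of all genes) and 6 rose (17.6%, against 12.5%), with a median log2 of -0.19. Without the block 2 rose and none fell. Leaving out experiment 1 left 4 falls and experiment 2, 3, 5 or 6 left 6. Col2a1, the cartilage collagen, fell from 21.6, 195 and 450 CPM to 14.7, 102 and 331 CPM (log2 -0.70 ± 0.10) and Col16a1 by 0.49 on the log2 scale. Those that rose included Col15a1 (52.5 to 195 CPM, 4.08-fold), Col6a3 (317 to 818 CPM, 2.41-fold) and Col4a1 (1149 to 1641 CPM, 1.43-fold), of which the last belongs to the basement membrane that surrounds fat cells, as does the laminin Lamb1 (1.39-fold).

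Contractile genes fell in a similar way. Of 31 smooth muscle and contractile genes 12 fell (38.7%, against 10.0% of all genes) and 3 rose (9.68%, against 12.5%), with a median log2 of -0.28. None fell without the block, and 3 fell without experiments 2 and 3. Acta2, smooth muscle actin, ran from 189 CPM in experiment 2 to 6940 in experiment 4 in EV, and from 101 to 5142 CPM in P in the same experiments. It was lower in P in every experiment (log2 -0.59 ± 0.10, adjusted p = 0.00318), although the spread between experiments was far larger. Cnn1, which regulates contraction, fell by 0.78 and Actg2 by 0.45 on the log2 scale. Des, the intermediate filament desmin, rose from 0.768 to 3.45 CPM (4.12-fold). Of 34 integrins and adhesion genes 12 fell (35.3%) and 3 rose (8.82%). None fell without the block, and 5, 7 and 7 fell without experiments 2, 3 and 5. Itgb5 fell by 0.31 on the log2 scale and the muscle integrin Itga7 rose 5.28-fold (6.05 to 31.1 CPM).

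Transcripts of the cell division programme were lower. Of 33 mitosis genes 29 fell and none rose (median log2 -0.36), of 38 DNA replication genes 13 fell and 1 rose (-0.22), and of 56 histone genes 24 fell and 1 rose (-0.48). Without the block none of the 3 lists had a fall, and without experiments 2 and 3 7, 0 and 1 fell. The replication and histone lists did not fall in experiment 5 (median log2 difference 0.06 and 0.003). Leaving out experiment 5 gave 21 falls among replication genes, experiment 2 gave 8 and experiment 3 gave 6, and 12, 12 and 13 histone genes fell without experiments 2, 3 and 6. Mki67, the proliferation marker, stood at 113, 129 and 253 CPM in EV and 78.5, 99.9 and 198 CPM in P (log2 -0.42 ± 0.05, adjusted p = 0.000798). The log2 difference ran from -0.27 to -0.55 over the 6 experiments, with overlapping groups. Foxm1, the transcription factor of mitotic genes, fell by 0.54 (43.1 to 29.996 CPM), Anln and Kif20a by 0.43 and 0.42 and Mcm2, part of the replicative helicase, by 0.32 on the log2 scale. Hist1h1b, a linker histone, fell by 0.56 (37.6 to 25.9 CPM). Histone genes are near-identical copies, and how reads shared between copies were counted is not given in the sources used here. Aurka did not pass (adjusted p = 0.0895).

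The deepest falls among well-expressed genes touched growth and signalling. Hmga2, a chromatin protein of growing mesenchymal cells, fell from 6.49, 42.7 and 99.3 CPM to 3.59, 17.4 and 60.1 CPM (log2 -0.96 ± 0.16, adjusted p = 0.00241). The interleukin receptor chain Il13ra1 and the ETS factor Etv4 each fell by 0.84 on the log2 scale. In all of these P was below EV in each of the 6 experiments, with overlapping groups. Signalling pathways gave mixed counts: of 37 Wnt genes 7 fell and 3 rose, of 46 TGFβ and BMP genes 10 fell and 4 rose, of 28 NF-κB-related cytokines 8 fell and 2 rose, and of 25 immediate early genes 5 fell and 1 rose. As shares, 18.9, 21.7, 28.6 and 20% of the lists fell, against 10.0% of all genes, and 8.11, 8.70, 7.14 and 4.00% rose, against 12.5%. Among the 29, 42, 23 and 24 members with enough counts in both groups, 6, 10, 7 and 5 fell. Without the block none of these lists had a fall, and without experiment 2 alone 3, 6, 5 and 3 fell. Without experiment 5 6 TGFβ and BMP genes, 4 cytokines and 3 immediate early genes fell, without experiment 3 4 cytokines, and without experiment 4 8 immediate early genes. The Wnt receptor Fzd2 fell (log2 -0.39 ± 0.08) and the feedback gene Axin2 rose (0.677 to 3.05 CPM, 3.44-fold). Tgfb3 and its signal carrier Smad3 fell by 0.46 and 0.31 on the log2 scale, while the growth factor Gdf5 rose from a median of 0.158 to 2.71 CPM (20.5-fold). Il1rn and Cxcl12 fell by 0.42 and 0.31 on the log2 scale.

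Defining markers were checked for the cells that could be present. All 8 fat cell markers rose, but they include Pparg, the target of the guide. Their summed level was 84.5 to 394 CPM in EV and 2725 to 10868 CPM in P. Pparg alone held 41.8 to 76.4 CPM in EV. Adipoq and Fabp4 had mean levels of 12.2 and 13.6 RPKM in EV, so other fat cell transcripts were present in EV as well. Of 6 mesenchymal markers 5 fell (7000 to 13222 CPM in EV and 5180 to 10768 in P). Macrophage markers (5 listed, 2 tested) summed to at most 4.79 CPM in EV and 4.51 in P and did not pass. The macrophage marker Adgre1 had 0 counts in EV and 2 in P, and the epithelial marker Epcam 3 and 0. Epithelial markers summed to at most 4.88 CPM in EV and 3.56 in P, where the 1 tested marker fell, skeletal muscle markers to at most 0.528 and markers of the brown fat lineage to at most 0.629. The endothelial markers summed to 23.2 to 48.6 CPM in EV and 18.2 to 40.3 in P, and the 1 tested marker of 4, Tek, fell. Nearly all of this sum was Tek (22.7 to 48.1 CPM in EV and 17.4 to 39.4 in P). Pecam1, Cdh5 and Kdr reached at most 0.470, 0.210 and 0.653 CPM in a library. No marker was at 0 in all 12 libraries, and the part of these cells in the results was not tested.

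The strength of the response varied by experiment. Among the genes that rose at least 2-fold, the median log2 difference was 2.44 in experiment 5 and 2.12 in experiment 2, and 1.13 in experiment 4, with 1.34, 1.69 and 1.49 in experiments 1, 3 and 6. Among those that fell it was -0.44 in experiments 2 and 5 and -0.23 in experiment 4. Pparg had its largest difference in experiment 5, but in experiment 2 it was among the smaller ones (log2 1.73). PPAR-responsive genes followed, with medians of 4.93 in experiment 5, 4.20 in experiment 2 and 2.81 in experiment 4. With 6 experiments these values are a description. The EV library of experiment 2 stood out in that it was the highest of the 6 EV libraries in 54 of the 79 genes that rose at least 16-fold.

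**Figure D4:**
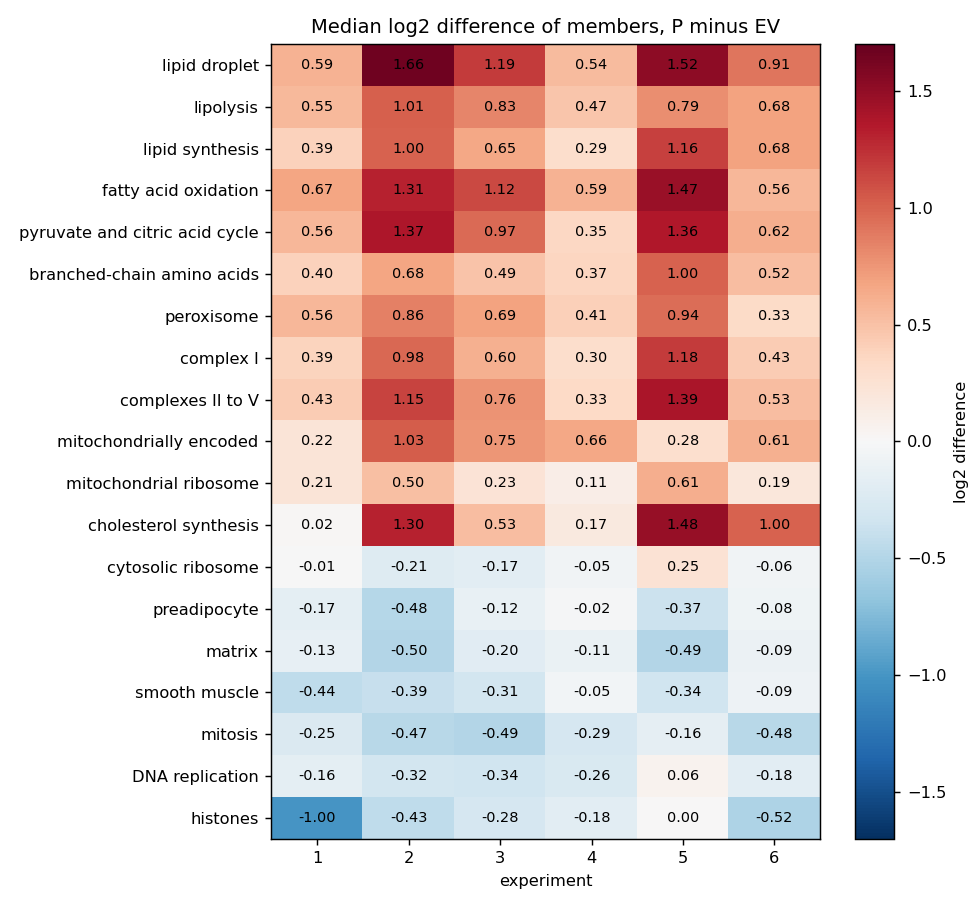
Median log2 difference of P minus EV over the members of 19 gene groups (rows) in each of the 6 experiments (columns), with the value in each field and colour from blue (lower) to red (higher). Experiments 2 and 5 have the strongest colours in most groups and experiment 4 the weakest.

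Whether the response at day 4 differed from that at day 2 was tested in the P and EV libraries of both days. Of 15757 genes 1 passed (0.00635%), with 1044 at an unadjusted p under 0.05 (6.63%). Without the block none passed in the same quasi-likelihood test in edgeR (152 at an unadjusted p under 0.05, 0.965%), and DESeq2 also called 1 gene. That gene was Kcnj14, a potassium channel, with mean levels of 0.328 CPM in EV and 0.442 in P at day 2 and 0.105 and 1.43 at day 4, so that the log2 difference went from 0.46 to 3.81 (change 3.35 ± 0.50, adjusted p = 0.0288). Its adjusted p rose to between 0.0630 and 0.537 when an experiment was left out. Mki67, with 1 of the 12 smallest p-values for this change (unadjusted p = 0.000501), had a log2 difference of -0.02 at day 2 and -0.42 at day 4, and the change did not pass in edgeR's test (adjusted p = 0.709). In simulated counts this comparison of days found 28% of 1.5-fold and 72% of 2-fold changes, so small changes can be missed.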

How the data were processed

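The authors deposited a table of raw counts per Ensembl gene. The submitters' processing notes list the mouse build mm10 (GRCm38) and, among the tools, featureCounts 1.5.2, STAR 2.5.3a and edgeR 3.22.0. Per the labels' protocols, libraries came from a stranded total RNA kit with removal of ribosomal RNA. The annotation release, the strand setting and the treatment of reads with several positions are not given in the sources used here, so overlapping genes on opposite strands and near-identical copies are uncertain.

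From the deposited counts, genes with about 0.486 CPM in 6 of the 12 libraries were kept by filterByExpr (14536 of 53801 rows, of which 11 have no GENCODE M21 name). TMM scaling and edgeR 4.0.16 quasi-likelihood tests (limma 3.58.1, R 4.3.3) used group and experiment, 2-sided, adjusted over all genes by Benjamini-Hochberg. The experiment number in the labels pairs the libraries, and in 5 of 6 experiments the EV library matched its own P library best (6 pair correlations of deviations, 0.32 to 0.80). Common biological variation was 0.124 with the block and 0.319 without. The SE was taken from the F statistic, and intervals are at 95%. Differences within an experiment used a prior count of 2. Totals of 11319350 to 29185878 counts set the precision. Replicates are separate experiments with 1 cell line. With the block, p-values measure how far the difference between P and EV varies among experiments, not the spread of levels between experiments. The day 2 comparison used the 24 EV and P libraries of days 2 and 4, with the experiment and day blocked together.

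Alternatives were the fit without the block, all 51 libraries, other scalings and filters, DESeq2 1.42.0, limma voom, the legacy quasi-likelihood fit and each experiment left out. The comparison, the gene lists and the rule for named genes were chosen with earlier results of these data known. The rule takes neighbours of Pparg within 500 kb, the 10 largest changes in each direction with the same sign in every experiment and at least 5 CPM, the 8 smallest p-values in each direction, and up to 4 passing and 2 other members of each list. The text names a subset of these, and some of the genes are not reported here. No table columns without a sample were used. The procedure was tested on simulated counts with 200 changed genes. For P against EV with the block, 14 of 170 calls were false, and 32% of 1.25-fold and 82% of 1.5-fold changes were found. For day 4 minus day 2, 9 of 104 calls were false, and 0% of 1.25-fold and 28% of 1.5-fold changes were found.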

Additional observations from a re-analysis of the deposited data

Results flagged for a closer look

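In 380 groups of 6 libraries (190 named genes), 13 had a library far from the other 5, where chance gives about 1 group in 20. Pparg in P was 370 CPM in experiment 5 against 203 to 242 in the others, and Gdf5 in P was 7.93 CPM in experiment 5 against 1.96 to 2.82. In EV, the library of experiment 2 stood above the others in 8 genes that rose with the guide: Cidec at 14.9 CPM (others 0.256 to 1.21), Adig at 0.685, Pck1 at 0.587, Cyp4b1 at 0.554, Kcnk3 at 0.326, Rxrg at 0.228, Sptlc3 at 0.130 and Aldh3b2 at 0.0978 CPM, the last 2 with no count in the other 5. Without experiment 2 the fold of Cyp4b1 was 417 in place of 91.8. In EV of experiment 4, Igf1 was at 58.5 CPM (others 199 to 375) and Cand2 at 11.8 CPM (others 20.6 to 25.1). Slc13a4 in EV of experiment 1 was at 0.15 CPM (others 0.319 to 0.465). The log2 difference of Kcnj14 between P and EV was larger at day 4 than at day 2 by 3.35 in the test of that change.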

How the results depend on the processing

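The pairing decided most calls. Without the replicate block 724 genes passed (714 higher, 10 lower) against 3278 with it, and 269 list members against 752. With all 51 libraries and no block these were 973 (938 and 35) and 320, and with all 51 libraries and a block shared by all days 1768 (397 lower) and 458. Scaling by library totals gave 2251 lower. Leaving out 1 experiment gave 2016 to 3071 genes (1282 to 1771 higher, 734 to 1300 lower), 544 to 716 list members, a Pparg log2 difference of 1.91 to 2.19, and 0 to 1 genes between day 4 and day 2 (0 without the block). Without experiments 2 and 3, an alternative chosen after seeing the data, 1130 passed (922 and 208) with 364 list members. In that fit integrin and adhesion falls were 2 (12 as reported), TGFβ and BMP falls 3 (10), Wnt falls 1 (7) and cytokine falls 2 (8). Collagen falls were 4 (10), lysosomal falls 0 (6), mitophagy rises 4 (13) and glycolysis and hypoxia rises 7 (14). Beyond the block, the cause of these moves was not tested. RLE, both other filters, DESeq2, voom, the legacy fit and a block for experiment within day stayed within 1.5 times in the counts over all genes and over all lists together. Single lists moved more: immediate early falls were 8 with RLE, 10 with DESeq2 and 9 with the block within day (5 as reported), smooth muscle falls 19 with DESeq2 (12), mitophagy rises 8 with no filter (13), and thermogenic rises 15 with the block within day (8). Counts of 3 or fewer in a list often changed when 1 experiment was left out. Among genes that did not pass, signs turned for Ppargc1a (-0.0057 with all libraries and no block, -0.036 by totals, -0.012 to 0.117 with 1 experiment left out), Mbd4 (-0.023 with the block within day, -0.019 by totals, -0.14 to 0.17), Rpl32 (-0.019 by totals, -0.0094 to 0.0996) and Ybx1 (-0.028 by totals). Of the 189 named genes 69 lost their call without the block, 54 of them lower ones. Without experiments 2 and 3 22 lost it, 18 of them lower ones. The lower ones included Acta2, Cxcl12, Itgb5, Mcm2, Slc2a1, Soat1 and Zfp521 (adjusted p from 0.0529 to 0.167 in edgeR's test). The 4 higher ones were Esrra, Fdps, Ifi27 and Tomm40 (0.0551 to 0.102). Depth limits Ucp1, Lep and the other genes with a few counts.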
